A study of Homo sapiens with 24 samples.

Results

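The genes described here encode the proteins of the cytosolic ribosome. They were taken from a gene count table as the protein-coding rows whose symbol is RPL or RPS with a number and at most a closing A, B, L or X, together with RPLP0, RPLP1, RPLP2, RPSA and FAU. Pseudogenes, the RPS6K kinases and RPS4Y genes were left out. The rule found 83 genes among 60617 rows, 50 of the large ribosomal subunit and 33 of the small one. It used names only, no measured values. The cells are THP1, a human monocytic leukaemia line that becomes macrophage-like under the phorbol ester PMA, and all libraries come from cells differentiated with PMA and then kept without it. All cells also carried a lentiviral pLKO.1 vector made in HEK-293FT cells and had been selected with puromycin. The 4 groups were CD33KO_shPTPN6 (CD33 knockout cells with a hairpin against PTPN6, 5 libraries), CD33KO_shCTRL (CD33 knockout cells with the empty vector, 6 libraries), WT_shPTPN6 (wild-type cells with the hairpin, 6 libraries) and WT_shCTRL (wild-type cells with the empty vector, 6 libraries). CD33 is an inhibitory cell surface receptor of myeloid cells and PTPN6 encodes the phosphatase SHP-1, which such receptors recruit. The labels name 1 hairpin, an empty vector in place of a non-targeting hairpin, and no statement on whether the knockout line is 1 clone. CD33KO_shPTPN6 replicate 2 was not analysed here. Nothing in the labels says whether replicates are separate cultures, so p-values measure the spread between these libraries, which may be technical.

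A ribosome joins a small subunit, which reads the messenger RNA, to a large subunit, which forms the peptide bond. Its proteins are needed in near equal numbers, and their messenger RNAs belong to the most abundant of a growing cell. Most carry a 5′ terminal oligopyrimidine (TOP) motif, a cytosine at the start of transcription followed by a run of pyrimidines, through which mTOR and the protein LARP1 hold back or release their translation and protect the messages. MYC and mTOR are known drivers of ribosome synthesis in growing cells, and MYC is known to go down when monocytic leukaemia cells stop dividing and differentiate.

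The TOP motif is what these genes share that the rule on names did not use, so the 30 bases around the annotated start are shown for members whose results are described below, with the longest pyrimidine run in capitals. RPS6, RPS14, RPL27A and RPS19 stand for members whose group means had the order of the total ribosomal protein share given below. Their fold changes could still differ from the median of the set. RPLP0, RPS12 and RPL22 stand for members with another order, and RPS27 and RPS27L for a paralog pair in which the runs differ. Each window holds 15 bases before the start and 15 from the start on, 5′ to 3′ on the gene's strand, from RefSeq on GRCh38.p14. They lie at chr9:19380222-19380251 (RPS6, minus strand), chr5:150449725-150449754 (RPS14, minus), chr11:8682777-8682806 (RPL27A, plus), chr19:41860240-41860269 (RPS19, plus), chr12:120201097-120201126 (RPLP0, minus), chr6:132814554-132814583 (RPS12, plus), chr1:6199581-6199610 (RPL22, minus), chr1:153990747-153990776 (RPS27, plus) and chr15:63157463-63157492 (RPS27L, minus).
RPS6: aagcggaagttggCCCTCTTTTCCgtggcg
RPS14: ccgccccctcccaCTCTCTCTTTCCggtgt
RPL27A: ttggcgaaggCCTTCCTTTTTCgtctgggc
RPS19: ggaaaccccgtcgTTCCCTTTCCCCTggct
RPLP0: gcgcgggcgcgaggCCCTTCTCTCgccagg
RPS12: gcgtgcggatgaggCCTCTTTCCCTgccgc
RPL22: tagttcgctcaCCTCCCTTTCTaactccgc
RPS27: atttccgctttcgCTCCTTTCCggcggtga
RPS27L: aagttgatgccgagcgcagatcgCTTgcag

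Of the 83 genes, 66 had a window, and 49 of them (74.2%) held a run of 8 or more pyrimidines, against 13.4% of all 27305 promoter windows. The median longest run was 11 bases in ribosomal protein genes and 4 bases over all promoters. The letters CTTTC, searched on the sense strand, were in 43.9% of the members' windows and in 4.18% of all windows. The shorter TTTC, which CTTTC contains, was in 65.2% and 13.3%. A cytosine at the start itself was found in 72.7% of members and 14.99% of all promoters. RPS27L, a paralog of RPS27 known as a p53 target, had a longest run of 3 and started with G. These are matches of letters at annotated starts and not measured start sites.

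Depth was 2024032 to 2581042 counts per library in CD33KO_shPTPN6, 2048161 to 3749258 in CD33KO_shCTRL, 3318001 to 6269304 in WT_shPTPN6 and 4170191 to 5700712 in WT_shCTRL. PTPN6 fell by 2.08 on the log2 scale with the hairpin in wild-type cells and by 2.37 in knockout cells, and CD33 had a log2 fold change of −1.16 ± 0.10 in CD33KO_shCTRL against WT_shCTRL. The counted 3′ end need not lie in the deleted part of CD33, which the labels do not give, so this does not check the knockout itself. All 14 macrophage markers had counts in every group. Their summed level, in CPM (counts scaled to libraries of equal size), was 6206 to 6505 in CD33KO_shPTPN6, 3927 to 4097 in CD33KO_shCTRL, 7220 to 7449 in WT_shPTPN6 and 5292 to 5696 in WT_shCTRL, so the sum had the order of groups of the ribosomal protein share below. Single markers mostly did not. Of the 13 that passed the filter on low counts, 2 (CSF1R and SPI1) had group means in that order, while CD14 stood at 1327 CPM in CD33KO_shPTPN6, 610 in CD33KO_shCTRL, 870 in WT_shPTPN6 and 281 in WT_shCTRL, and FCER1G was highest in WT_shCTRL at 1207 CPM. Markers of undifferentiated myeloid progenitors, 12 in the list, summed to 66.5–79.85 CPM in CD33KO_shPTPN6, 45.6–61.9 in CD33KO_shCTRL, 138–173.7 in WT_shPTPN6 and 212–234.7 in WT_shCTRL, with MPO and MS4A3 at 0 in CD33KO_shPTPN6 and MS4A3 at 0 in CD33KO_shCTRL. HEK-293FT and epithelial markers, also 12, summed to 86.4–109 CPM in CD33KO_shPTPN6, 108.5–143 in CD33KO_shCTRL, 64.3–104 in WT_shPTPN6 and 49.8–71.3 in WT_shCTRL, with LIN28B at 0 in all groups but CD33KO_shCTRL, and EPCAM at 0 in CD33KO_shPTPN6 and PAX2 at 0 in WT_shPTPN6. Reads of the mitochondrial genome took 6.45% of counts in CD33KO_shPTPN6, 6.79% in CD33KO_shCTRL, 8.30% in WT_shPTPN6 and 6.24% in WT_shCTRL. The part of any of these in the results below was not tested.

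Ribosomal protein genes took a different share of the counts in each group. They made up 7.70% ± 0.19 of a library in CD33KO_shPTPN6 (SD, n = 5), 4.66% ± 0.10 in CD33KO_shCTRL (n = 6), 9.43% ± 0.14 in WT_shPTPN6 (n = 6) and 6.58% ± 0.46 in WT_shCTRL (n = 6). The ranges over libraries were 7.47 to 7.89% in CD33KO_shPTPN6, 4.51 to 4.79% in CD33KO_shCTRL, 9.26 to 9.57% in WT_shPTPN6 and 6.24 to 7.34% in WT_shCTRL, so no 2 groups overlapped. Both subunits took part. Large subunit genes held 4.33% of counts in CD33KO_shPTPN6, 2.64% in CD33KO_shCTRL, 5.20% in WT_shPTPN6 and 3.68% in WT_shCTRL. Small subunit genes held 3.37% in CD33KO_shPTPN6, 2.02% in CD33KO_shCTRL, 4.24% in WT_shPTPN6 and 2.90% in WT_shCTRL. Within WT_shCTRL, replicate 4 at 6.95% and replicate 6 at 7.34% stood above the other 4 libraries, which lay between 6.24 and 6.35% and averaged 6.30% ± 0.05 (SD, n = 4). Results against this group are therefore also given without both of them, a check chosen after the data were seen. A share is relative to all other transcripts: the amount of ribosomal protein message per cell was not measured, and in bulk RNA fewer cells of a type and less of its RNA per cell cannot be told apart.

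**Figure D1:**
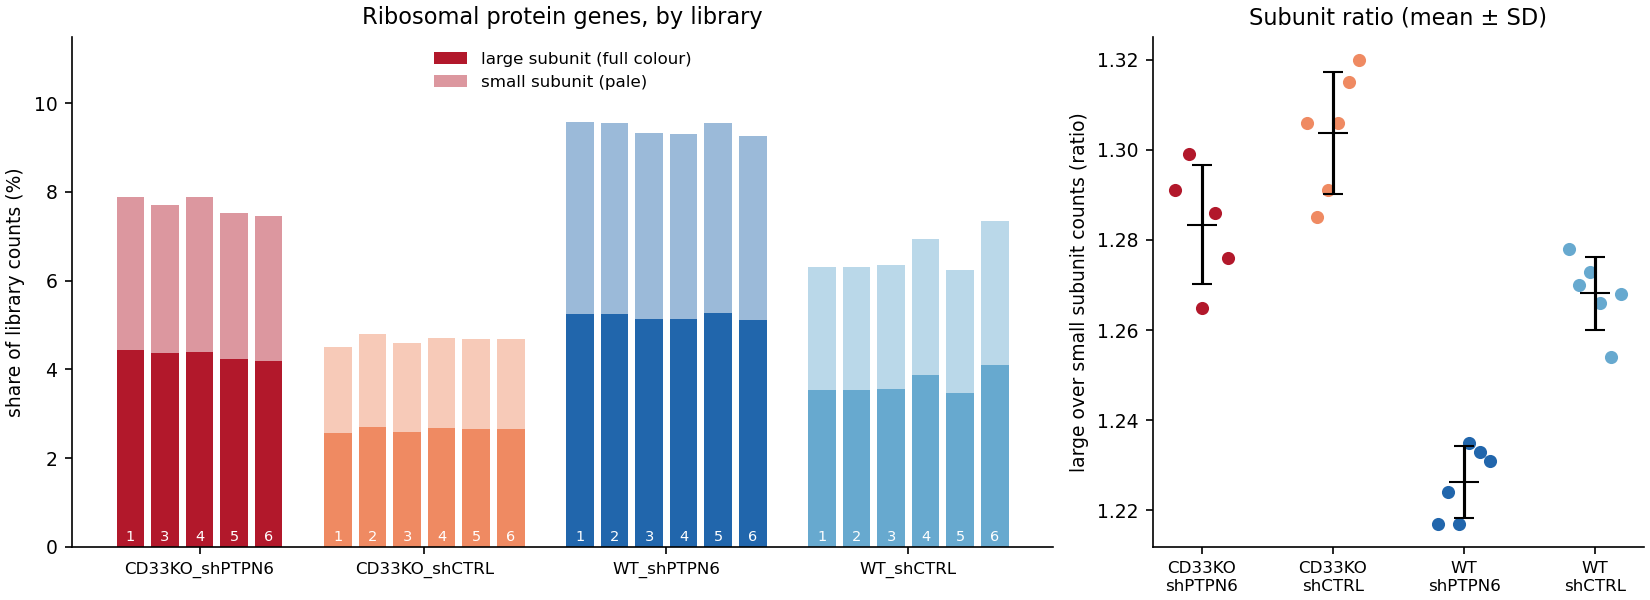
Left, the share of each library's counts in ribosomal protein genes (percent), large subunit in full colour and small subunit in pale colour, with replicate numbers in the bars; WT_shPTPN6 libraries reach 9.26 to 9.57% and CD33KO_shCTRL libraries 4.51 to 4.79%. Right, the ratio of large to small subunit counts per library with mean and SD, on an axis that does not start at 0; WT_shPTPN6 is lowest at 1.217 to 1.235.

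The balance between the subunits moved much less than the total. The ratio of large to small subunit counts was 1.283 ± 0.013 in CD33KO_shPTPN6 (SD, n = 5), 1.304 ± 0.014 in CD33KO_shCTRL, 1.226 ± 0.008 in WT_shPTPN6 and 1.268 ± 0.008 in WT_shCTRL (n = 6 each). The 6 WT_shPTPN6 libraries, at 1.217 to 1.235, lay below every other library, and the 6 CD33KO_shCTRL libraries, at 1.285 to 1.32, lay above every WT_shCTRL library, at 1.254 to 1.278. The ranges of CD33KO_shPTPN6, at 1.265 to 1.299, and CD33KO_shCTRL overlapped. In 57 of the 80 members that passed the filter on low counts, the group means stood in the order of the total share, WT_shPTPN6 highest, then CD33KO_shPTPN6, WT_shCTRL and CD33KO_shCTRL. Another 8 had CD33KO_shPTPN6 above WT_shPTPN6 and kept the rest of the order.

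The 3 members that did not pass were RPL3L, with 3 counts in all libraries, RPL10L, with 1 count, and RPL17, with 119 counts. RPL3L is known from heart and skeletal muscle, and RPL10L from the testis. RPL17 shares 83.3% of its 3′ sequence words with other genes. Pseudogenes named after RPL17 held 2518 counts, so its level is uncertain. The levels quoted from here on, and those of single markers above, are CPM on the scale of trimmed means (TMM). The marker sums above were scaled by library totals alone. Each read stands for a transcript end, so levels were not divided by length. Fold changes are log2 with standard errors, and a gene is called at an edgeR quasi-likelihood p of under 0.05 after Benjamini-Hochberg adjustment over all 13098 genes tested.

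RPL27A, a large subunit protein, had the most counts of all members. It had 5372, 4838, 6048, 5113 and 5133 CPM in the CD33KO_shPTPN6 libraries. CD33KO_shCTRL libraries had 2249 to 2773 CPM (median 2723), WT_shPTPN6 libraries 6843 to 7553 (median 7195) and WT_shCTRL libraries 3960 to 4284 (median 4095). No 2 of the 4 groups overlapped, and knockout cells with the hairpin lay between the 2 wild-type groups. RPS14, a small subunit protein whose loss is tied to the anaemia of the 5q deletion, followed the same order. It stood at 4062, 3713, 4351, 3753 and 3898 CPM in CD33KO_shPTPN6, at 2131 to 2486 in CD33KO_shCTRL (median 2231), at 4537 to 4958 in WT_shPTPN6 (median 4750) and at 2892 to 3552 in WT_shCTRL (median 3015).

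Knockout of CD33 with the control vector went with lower ribosomal protein transcripts. Of 80 genes tested, 69 fell and 2 rose in CD33KO_shCTRL against WT_shCTRL, while 28.4% of all tested genes were called lower and 28.3% higher. By subunit, 40 of 47 large and 29 of 33 small subunit genes fell. The median log2 fold change was −0.42 over the members, −0.40 for the large and −0.46 for the small subunit, against −0.01 over all genes tested. In 62 of the 80 the libraries of the groups did not overlap, which held for 34.1% of all genes tested. Without WT_shCTRL replicates 4 and 6, 65 fell and 2 rose, with a median of −0.36.

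The largest falls were in the stalk protein RPLP0, in RPS12 of the small subunit and in RPL6 of the large one. RPLP0, the base of the stalk that recruits the GTPase translation factors, had 191 to 219 CPM in CD33KO_shCTRL (median 203) and 358 to 437 in WT_shCTRL (median 391), a log2 fold change of −0.96 ± 0.05 (adjusted p = 2.35e-33). RPS12 had 600 to 644 CPM (median 614) in CD33KO_shCTRL against 1109 to 1366 in WT_shCTRL (median 1136), a log2 fold change of −0.94 ± 0.05 (adjusted p = 1.28e-36). RPL6 changed by −0.83 ± 0.10 and RPSA, needed for small subunit assembly, by −0.78 ± 0.08. Libraries of the groups did not overlap in any of these 4 genes. RPLP0, RPS12 and RPL6 share over 50% of their 3′ sequence words with other genes, as given below, so their levels are uncertain. Of the other stalk proteins, RPLP1 fell by 0.53 ± 0.04 and RPLP2 by 0.40 ± 0.04. RPL5 and RPL11, which bind the 5S ribosomal RNA and, outside the ribosome, the p53 ligase MDM2, fell by 0.47 ± 0.05 and 0.56 ± 0.05. RPS27A, made as a fusion with ubiquitin, fell by 0.44 ± 0.05, and FAU, a fusion of a ubiquitin-like protein with a small subunit protein, by 0.25 ± 0.05.

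A few members did not go down with the knockout. RPL22, an RNA-binding large subunit protein known in mice for a role in T cell development, had 153 to 165 CPM in CD33KO_shCTRL (median 154) and 134 to 148 in WT_shCTRL (median 141), a rise of 0.15 ± 0.05 (adjusted p = 0.0151). That call was lost without WT_shCTRL replicate 5 (0.12, adjusted p = 0.0568) and with scaling by total counts alone (0.09, adjusted p = 0.137) and no filter (0.10, adjusted p = 0.242). RPS27L had 203 to 261 CPM in CD33KO_shCTRL and 175 to 189 in WT_shCTRL, a rise of 0.26 ± 0.05 (adjusted p = 9.90e-06), and its groups did not overlap either. RPL37 had 2109 to 2408 CPM in CD33KO_shCTRL (median 2294) and 2106 to 2684 in WT_shCTRL (median 2207), with overlapping groups and a log2 fold change of −0.03 ± 0.05 (adjusted p = 0.600). RPL10A at 0.05 ± 0.06 and RPL10 at −0.04 ± 0.08 did not pass either.

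PTPN6 knockdown in wild-type cells went with higher transcripts of nearly all members. Of 80 genes, 73 rose and 1 fell in WT_shPTPN6 against WT_shCTRL, while 30.2% of all tested genes were called higher and 30.4% lower. The rises covered 42 of 47 large and 31 of 33 small subunit genes. Medians were 0.55 over the members, 0.54 for the large and 0.58 for the small subunit, and 0.00 over all genes. Libraries did not overlap in 68 of 80 members, and in 37.4% of all genes. Without WT_shCTRL replicates 4 and 6, 74 rose and none fell, with a median of 0.63.

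Among the highest fold changes in wild-type cells were those of RPS3A, at 0.96 ± 0.19, and RPS19, at 0.88 ± 0.04. RPS19, the protein most often mutated in Diamond-Blackfan anaemia, had 2581 to 2798 CPM in WT_shPTPN6 (median 2681) and 1373 to 1635 in WT_shCTRL (median 1393; adjusted p = 7.24e-36). RPS3A had far fewer counts, at 7.65 to 10.2 CPM in WT_shPTPN6 and 3.03 to 5.385 CPM in WT_shCTRL. RPL13A, which in interferon-treated monocytic cells leaves the ribosome to silence inflammatory messages, rose by 0.87 ± 0.05. The stalk proteins rose by 0.76 ± 0.05 (RPLP0), 0.61 ± 0.04 (RPLP1) and 0.80 ± 0.04 (RPLP2). RPS6, the small subunit protein phosphorylated by the S6 kinases below mTOR, had 3099 to 3211 CPM in WT_shPTPN6 (median 3159) and 1911 to 2411 in WT_shCTRL (median 1947), a rise of 0.63 ± 0.04 (adjusted p = 8.47e-25). RPSA rose by 0.24 ± 0.07 with overlapping libraries. RPL24, at 0.11 ± 0.06, did not pass (adjusted p = 0.0910), but did without WT_shCTRL replicate 4 (0.14), without WT_shCTRL replicate 6 (0.19) and without WT_shPTPN6 replicate 3 (0.14).

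The member that fell was RPL36A, with 10.5 to 16.9 CPM in WT_shPTPN6 and 14.35 to 20.0 CPM in WT_shCTRL (−0.28 ± 0.13, adjusted p = 0.0460). Its groups overlapped. The value became 0.07 when counts of pseudogenes named after the gene were added to it (adjusted p = 0.511). Leaving out 1 of 13 single libraries also ended the call, with adjusted p-values up to 0.154.

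In CD33 knockout cells the knockdown went with a still larger rise. In CD33KO_shPTPN6 against CD33KO_shCTRL, 74 of 80 members rose and 1 fell, while 20.5% of all genes were called higher and 21.6% lower. The rises took in 43 of 47 large and 31 of 33 small subunit genes, with medians of 0.78 and 0.79 and of −0.01 over all genes. With scaling by total counts alone, all genes split 1999 higher to 3623 lower in place of 2685 to 2827, and 74 members still rose. Libraries of the groups did not overlap in 73 members, and in 24.2% of all genes. RPL29 at 1.20 ± 0.08 and RPL13A at 1.12 ± 0.05 had the highest fold changes. RPS6 stood at 2944, 2974, 2935, 2882 and 2762 CPM in CD33KO_shPTPN6, and at 1352 to 1530 CPM in CD33KO_shCTRL (median 1460), a rise of 1.00 ± 0.05 (adjusted p = 3.63e-37). The member that fell was RPL39L, described with the paralogs below.

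**Figure D2:**
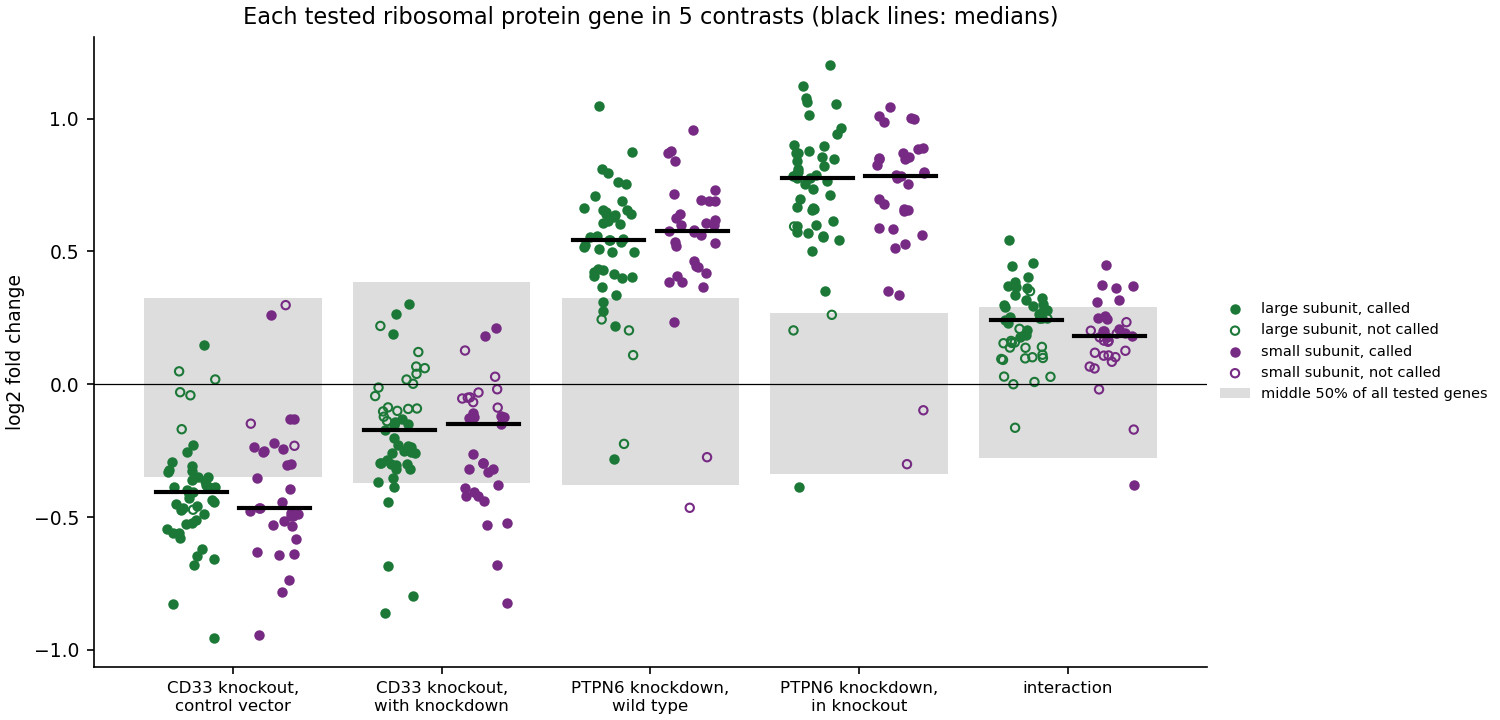
Log2 fold change (vertical axis) of each tested ribosomal protein gene in 5 contrasts, large subunit in green and small subunit in purple, filled where called; black lines are medians and grey boxes span the middle 50% of all 13098 tested genes. The knockdown medians, 0.54 to 0.79 by subunit, lie above the grey boxes, and the knockout medians with the control vector, −0.40 and −0.46, below.

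The knockdown effects in the 2 lines come from separate libraries. All 73 members that rose in wild-type cells were among the 74 that rose in knockout cells. Across the 80 members the fold changes had a Spearman correlation of 0.779, a description across genes that share libraries and depth. The fold change was larger in knockout cells for 75 of 80. The test of that difference, the interaction, called 40 members higher and 1 lower, while 14.5% of all genes were called higher and 13.9% lower. The median difference was 0.20 over the members, 0.24 for the large and 0.18 for the small subunit. Without WT_shCTRL replicates 4 and 6 the interaction called 26 higher and 1 lower, with a median of 0.13. RPL28, a large subunit protein of animals that budding yeast lacks, had the smallest p, with a difference of 0.46 ± 0.07 (adjusted p = 2.04e-08). It had 697, 655, 640, 631 and 593 CPM in CD33KO_shPTPN6 and 294 to 322 in CD33KO_shCTRL (median 311), then 574 to 661 in WT_shPTPN6 (median 611) and 371 to 455 in WT_shCTRL (median 402). RPS6 differed by 0.37 ± 0.06 (adjusted p = 1.23e-06) and RPL26, which is known to bind the p53 message, by 0.41 ± 0.07 (adjusted p = 1.81e-06). RPS27L was the member called lower, at −0.38 ± 0.08 (adjusted p = 2.03e-05).

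**Figure D3:**
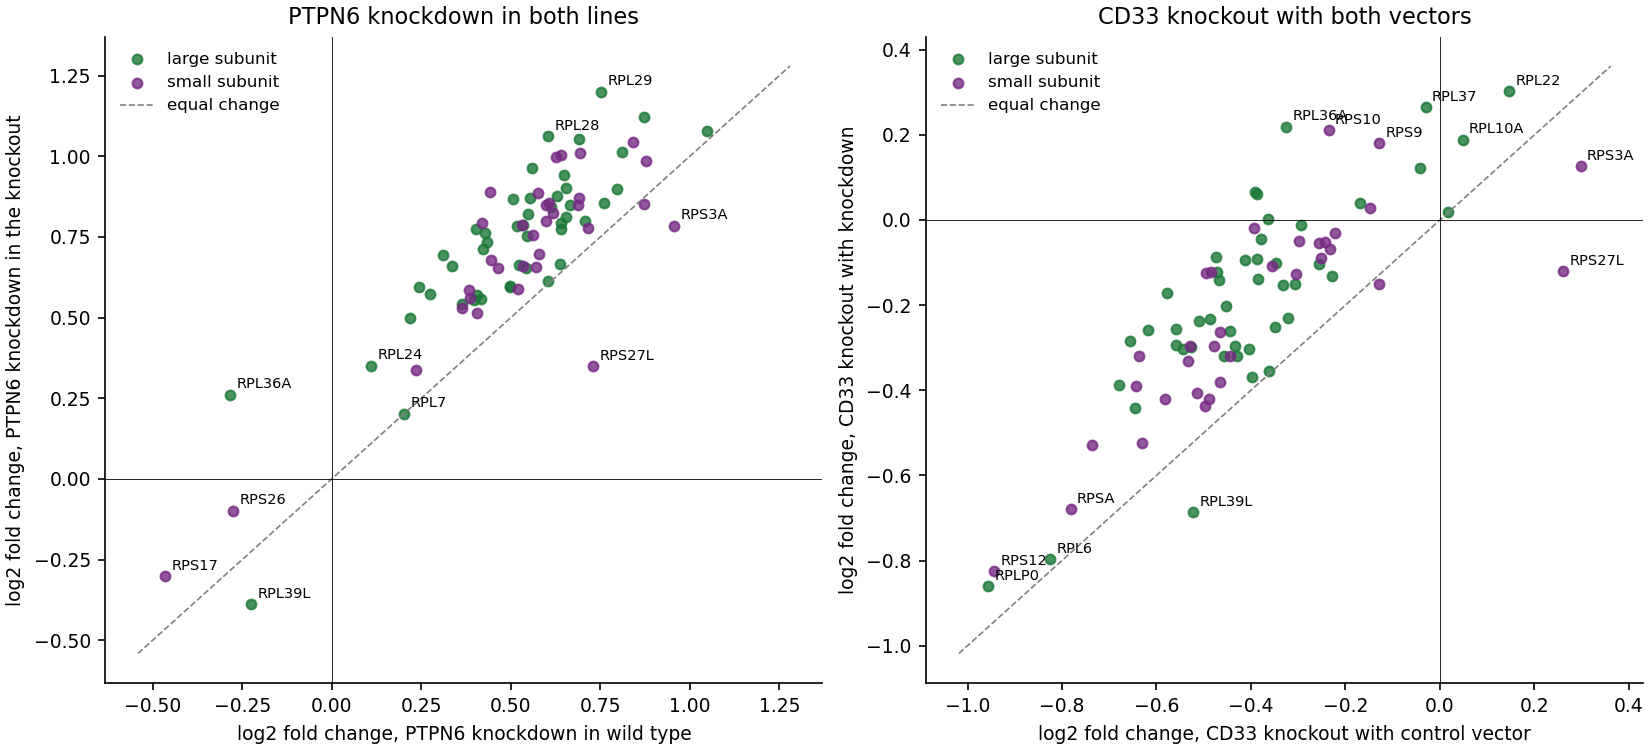
Each point is a tested ribosomal protein gene, with log2 fold changes on both axes and a dashed line of equal change. Left, PTPN6 knockdown in knockout cells against that in wild-type cells, with 75 of 80 genes above the line; right, CD33 knockout with the hairpin against that with the control vector, where RPLP0, RPS12 and RPL6 lie lowest and RPL22 highest on the vertical axis.

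With the hairpin in both lines, the knockout difference was smaller. In CD33KO_shPTPN6 against WT_shPTPN6, 50 members were lower and 5 higher (28 and 3 of the large subunit, 22 and 2 of the small), while 27.5% of all genes were called lower and 29.0% higher. The median was −0.16, with −0.17 for the large and −0.15 for the small subunit and 0.01 over all genes, and libraries did not overlap in 44 of 80 members and in 37.2% of all genes. Of the 69 members lower with the control vector, 49 were also lower here, which is 49 of the 50. The lowest were again RPLP0 (−0.86 ± 0.05), RPS12 (−0.82 ± 0.05) and RPL6 (−0.80 ± 0.10). RPS12 had 1080, 1023, 1027, 946 and 933 CPM in CD33KO_shPTPN6 and 1684 to 1836 in WT_shPTPN6 (median 1787), with a wide gap between the groups. The 5 called higher were RPL22 (0.30 ± 0.05), RPL37 (0.27 ± 0.05), RPS10 (0.21 ± 0.09), RPL10A (0.19 ± 0.06) and RPS9 (0.18 ± 0.05). RPS10 passed narrowly (adjusted p = 0.0418) and lost its call under 26 of 32 other settings, for example with scaling by total counts alone (adjusted p = 0.174). RPL10A was lost without CD33KO_shPTPN6 replicate 3 (adjusted p = 0.0518), and its adjusted p reached 0.134 over all settings. RPS9 was lost when no filter on low counts was used (adjusted p = 0.0780).

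Taking both changes together, CD33KO_shPTPN6 against WT_shCTRL, 63 members were higher and 4 lower, with 32.1% of all genes called higher and 31.7% lower. The median was 0.32, with 0.31 for the large and 0.33 for the small subunit, and libraries did not overlap in 45 of 80 members and in 45.7% of all genes. With scaling by total counts alone, which moved the median of all genes by −0.14, all genes split 3209 higher to 5258 lower in place of 4204 to 4152, and the members 48 higher to 7 lower. Without WT_shCTRL replicates 4 and 6, 68 members were higher and 3 lower, with a median of 0.39. RPS3A at 1.08 ± 0.22, RPL37 at 0.91 ± 0.05 and RPL29 at 0.81 ± 0.07 were highest. The 4 that were lower were RPL39L (−0.91 ± 0.14), RPSA (−0.44 ± 0.09), RPS12 (−0.25 ± 0.05) and RPL24 (−0.19 ± 0.06), the last of which was lost without WT_shCTRL replicates 4 and 6 (adjusted p = 0.152). RPLP0, at −0.10 ± 0.05, did not pass (adjusted p = 0.0854), but did without any 1 of 5 libraries, CD33KO_shPTPN6 replicate 1, CD33KO_shCTRL replicate 2 and WT_shCTRL replicates 2, 3 and 5. This comparison shares its libraries with those above.

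To see which members moved apart from the set, counts were also scaled to the summed counts of the ribosomal protein genes and tested again over all genes. With the knockout and control vector, 21 members were higher and 16 lower relative to that total, where 71.8% of all tested genes were called in either direction. The counts were 26 higher and 15 lower for the knockout with the hairpin (background 59.7%), 11 and 28 for the knockdown in wild-type cells (80.6%) and 12 and 28 for the knockdown in knockout cells (84.7%). This scaling moved the other genes as a whole. Their overall shift makes these shares no like background for the members. Over all tested genes the medians became 0.43 and 0.24 for the knockout with the control vector and the hairpin. For the knockdown they became −0.60 in wild-type and −0.81 in knockout cells. Without WT_shCTRL replicates 4 and 6, these counts were 22 and 16 for the knockout with the control vector and 12 and 28 for the knockdown in wild-type cells. With the knockout, RPLP0 was at −0.52 ± 0.06 with the control vector and −0.63 ± 0.06 with the hairpin, and RPS12 at −0.50 ± 0.05 and −0.59 ± 0.05. In the other direction RPL22 was at 0.58 ± 0.06 and 0.54 ± 0.06, and RPL37 at 0.41 ± 0.05 and 0.50 ± 0.05. All 8 of these values passed the test. RPL22 stood at 236, 224, 232.5, 214 and 238 CPM in CD33KO_shPTPN6 and at 167 to 204 in WT_shPTPN6 (median 187). RPL37 stood at 4489, 4552, 4327, 4150 and 4176 CPM in CD33KO_shPTPN6 and at 3451 to 3753 in WT_shPTPN6 (median 3620). For both genes every CD33KO_shPTPN6 library was above every WT_shPTPN6 library, the reverse of RPLP0, with 399, 379, 350.5, 376 and 341.5 CPM in CD33KO_shPTPN6 against 627 to 752 in WT_shPTPN6 (median 663).

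**Figure D4:**
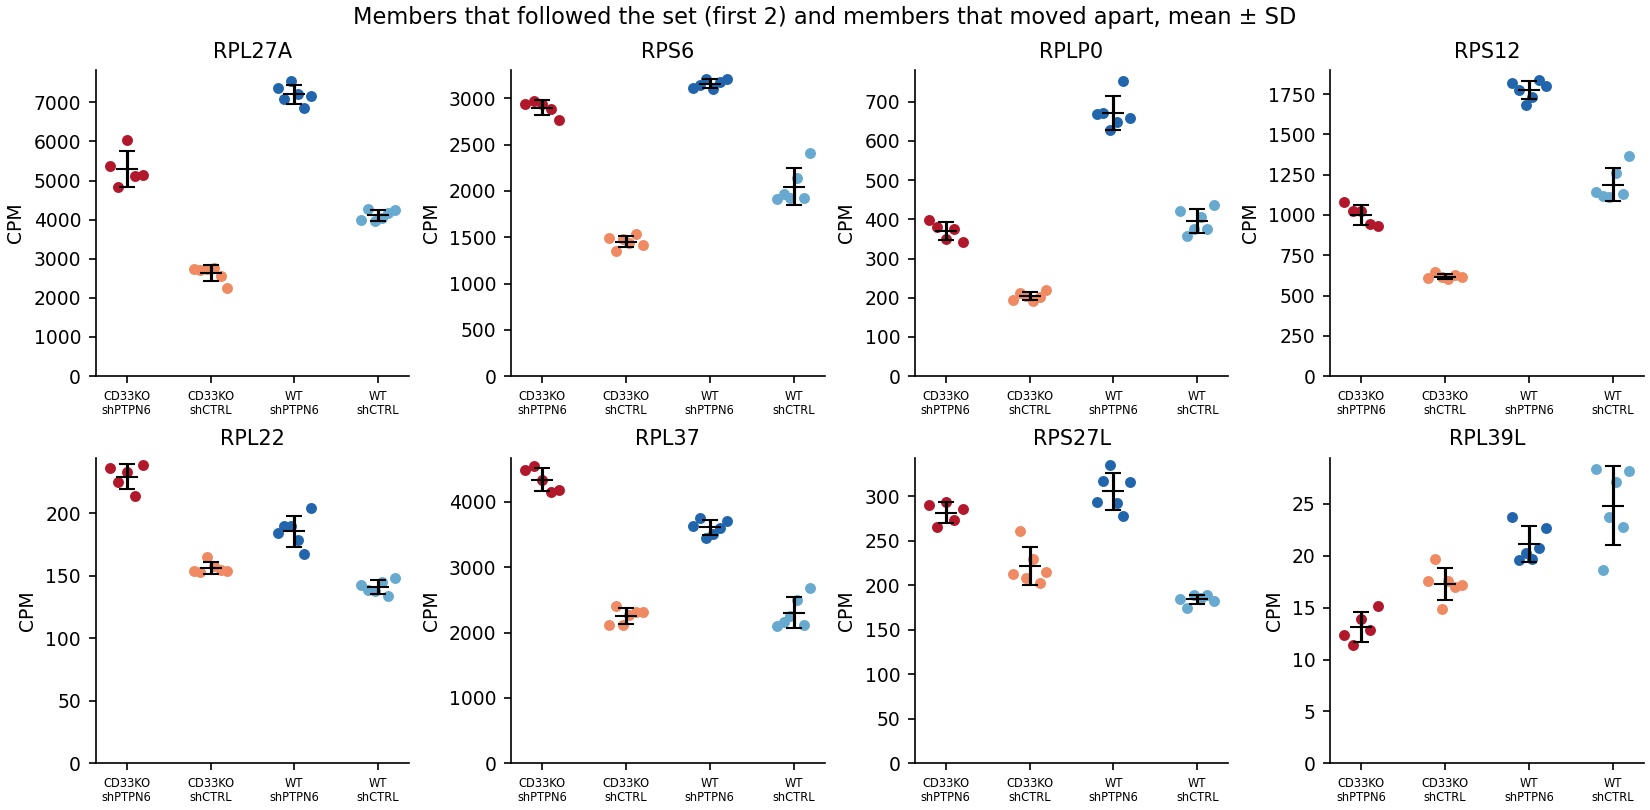
CPM per library on axes from 0, with group mean and SD, for RPL27A and RPS6 and for 6 other members. Group means of RPL27A and RPS6 had the order of the total share, and those of the 6 did not. RPLP0 and RPS12 are low in both knockout groups, RPL22 and RPL37 are highest in CD33KO_shPTPN6, and RPL39L is lowest there at 11.4 to 15.1 CPM.

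Paralogs of the same ribosomal protein did not always move together. RPS27 had 138, 148, 156, 147 and 158 CPM in CD33KO_shPTPN6, 77.7 to 107 in CD33KO_shCTRL (median 99.0), 140 to 173 in WT_shPTPN6 (median 152) and 103 to 126 in WT_shCTRL (median 109). Its paralog RPS27L had 290, 265, 294, 273 and 285 CPM in CD33KO_shPTPN6, 203 to 261 in CD33KO_shCTRL (median 214), 278 to 336 in WT_shPTPN6 (median 305) and 175 to 189 in WT_shCTRL (median 185). RPS27L was thus higher with the knockout (0.26) where RPS27 was lower (−0.22 ± 0.07). It rose more with the knockdown in wild-type cells (0.73 ± 0.05) than in knockout cells (0.35 ± 0.06), and RPS27 rose in both (0.46 ± 0.06 and 0.65 ± 0.07). RPS27 shares 75.3% of its 3′ sequence words with other genes, so its level and the contrast of this pair are uncertain. RPL39L, known from the testis, was lowest in CD33KO_shPTPN6. It had 12.35, 11.4, 13.9, 12.9 and 15.1 CPM in CD33KO_shPTPN6, 14.8 to 19.7 in CD33KO_shCTRL (median 17.4), 19.6 to 23.8 in WT_shPTPN6 (median 20.5) and 18.7 to 28.4 in WT_shCTRL (median 25.4). Its fall with the knockdown in knockout cells (−0.39 ± 0.16, adjusted p = 0.0451) was lost in DESeq2 (adjusted p = 0.0541), with no filter (0.144) and without 9 of the 11 single libraries of those groups, and the value in wild-type cells (−0.22 ± 0.11, adjusted p = 0.0582) did not pass. The common form RPL39 rose with the knockdown by 0.65 ± 0.07 in wild-type and 0.90 ± 0.07 in knockout cells. RPL36AL, from a separate gene copy of RPL36A, rose by 0.22 ± 0.05 and 0.50 ± 0.06. Of paralogs whose names the rule did not take, RPL22L1 was lower with the knockout (−0.42 ± 0.12) where RPL22 was higher, RPL26L1 was lower (−0.46 ± 0.11), and RPL7L1, a ribosome assembly protein, was higher (0.42 ± 0.05).

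Ribosomal protein genes have very many processed pseudogenes, and the annotation holds 1590 pseudogene rows named after the members. In 22 members over 50% of the 50-base words in the last 300 bases of the transcript also occurred in another gene, so reads could fall on several genes. Their median level was 90.0 CPM, against 727 CPM in the other 61. Among the 22 are RPL6 (89.0% shared), RPL36A (81.3%), RPS10 (79.3%), RPS3A (76.5%), RPS27 (75.3%), RPL10A (59.4%), RPL26 (57.7%), RPS12 (56.6%), RPLP0 (54.0%) and RPL24 (52.6%). The levels of these members are uncertain. None of these words was shared in RPL27A, RPL22, RPL37, RPS6 and RPS27L. The median fold changes of the tested members over and under that limit were −0.40 and −0.43 for the knockout with the control vector, 0.46 and 0.56 for the knockdown in wild-type cells, and 0.68 and 0.79 for the knockdown in knockout cells. Pseudogene rows other than RPS26P52 took 0.129% ± 0.007 of counts in CD33KO_shPTPN6, 0.0860% ± 0.0024 in CD33KO_shCTRL, 0.139% ± 0.017 in WT_shPTPN6 and 0.102% ± 0.006 in WT_shCTRL (SD), the order of the members themselves. RPS26P52 was 10.39 ± 0.23 higher on the log2 scale in CD33KO_shCTRL than in WT_shCTRL. RPS26 itself had 271 counts in all libraries and passed the test in no contrast. Pseudogenes named after it held 42978 counts, 99.4% of both together. RPS26P52 alone held 42489, at mean levels of 1442 CPM in CD33KO_shPTPN6, 1782 in CD33KO_shCTRL, 1.667 in WT_shPTPN6 and 1.204 in WT_shCTRL. RPS26 had means of 3.077, 3.159, 2.926 and 3.596 CPM in these groups, so it was also low where RPS26P52 was nearly absent. The level and the fold changes of RPS26 are uncertain. Whether reads of RPS26 fell on pseudogene rows was not tested.

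The medians of members with and without a long pyrimidine run at the start had the same sign. With a run of 8 or more (48 tested) and under 8 (16 tested), the medians were −0.45 and −0.39 for the knockout with the control vector, 0.59 and 0.54 for the knockdown in wild-type cells, and 0.80 and 0.72 for the knockdown in knockout cells. RPS27L, with the run of 3 shown above, rose with the knockdown in both lines like RPS27 with its run of 9, but the fold changes of the pair had opposite signs with the knockout. RPL22 and RPS12, with runs of 11 each, went opposite ways with the knockout. The levels of RPS27 and RPS12 are uncertain, as given above. The Spearman correlation of the fold change with the length of the run was −0.184, 0.0766 and 0.244 in these 3 contrasts over 64 genes, given as a description.

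Other genes of the translation machinery were counted in lists, whose counts stand against 28.3% of all tested genes higher and 28.4% lower with the knockout and control vector, 30.2% and 30.4% with the knockdown in wild-type cells, and 20.5% and 21.6% with it in knockout cells. Of 24 tested TOP messages outside the ribosome, 17 fell and 2 rose with the knockout and control vector (median −0.36), 18 rose and 3 fell with the knockdown in wild-type cells (median 0.33), and 19 rose and 2 fell with it in knockout cells (median 0.31). In CD33KO_shPTPN6 against WT_shCTRL, where the ribosomal proteins had a median of 0.32, 8 of the 24 were higher and 7 lower (median −0.03). The ribosome-bound scaffold RACK1 had 1741 ± 83 CPM in CD33KO_shPTPN6, 964 ± 34 in CD33KO_shCTRL, 1802 ± 71 in WT_shPTPN6 and 1216 ± 68 in WT_shCTRL (SD). It rose with the knockdown by 0.57 ± 0.04 in wild-type and 0.85 ± 0.05 in knockout cells, and the elongation factor EEF2 by 0.48 ± 0.04 and 0.66 ± 0.05. VIM, a TOP message that encodes the filament protein vimentin and takes no part in translation, fell by 0.73 ± 0.05 with the knockout and rose by 1.22 ± 0.05 with the knockdown in wild-type cells. TPT1, the translationally controlled tumour protein, fell by 0.64 ± 0.05 with the knockout.

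Host genes of small nucleolar RNAs, many of whose spliced transcripts are known as TOP RNAs, rose in 12 of 14 with the knockdown in wild-type cells (median 0.67) and in 13 of 14 in knockout cells (median 0.78), and none fell. SNHG29 rose by 1.21 ± 0.05 and 1.37 ± 0.05. With the knockout and control vector 2 were higher and 4 lower (median −0.04), shares close to or under those over all genes, with SNHG5 at −1.19 ± 0.06 and SNHG16 at 0.58 ± 0.06. Ribosome assembly factors, 64 tested, had medians nearer to 0, with 27 higher and 8 lower with the knockdown in wild-type cells (median 0.13), 12 and 7 in knockout cells (0.03), and 16 and 12 with the knockout (0.04). The methyltransferase FBL fell by 0.64 ± 0.06 with the knockout and rose by 0.60 ± 0.07 with the knockdown in knockout cells.

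Mitochondrial ribosomal protein genes were divided in direction. Of 73 tested, 35 rose and 13 fell with the knockdown in wild-type cells (median 0.11), 10 rose and 19 fell with it in knockout cells (median 0.06), and 13 rose and 27 fell with the knockout (median −0.08). Their windows at the start held a pyrimidine run of 8 or more in 13.0%, close to the share over all promoters. In the list of MYC and mTOR control genes, 26 tested, 14 rose and 4 fell with the knockdown in wild-type cells, 13 and 3 in knockout cells, and 9 and 7 with the knockout. MYC, chosen here after its values were seen, had 16.2 ± 3.7 CPM in CD33KO_shPTPN6, 6.11 ± 1.80 in CD33KO_shCTRL, 23.4 ± 3.0 in WT_shPTPN6 and 10.5 ± 3.2 in WT_shCTRL (SD), the order of the ribosomal protein share. Its log2 fold changes were 1.16 ± 0.14 with the knockdown in wild-type cells and −0.76 ± 0.20 with the knockout. How many other genes of the list had the order of the ribosomal protein share is not given here, and the part of MYC was not tested. The translation repressor EIF4EBP1 fell by 0.95 ± 0.11 with the knockout, and the S6 kinase family member RPS6KA1 rose by 0.94 ± 0.05 with the knockdown in wild-type cells. Of 16 tested p53 response genes, 7 rose and 6 fell with the knockout (median 0.00), with GDF15 at 3.97 ± 0.06 and SESN1 at −0.71 ± 0.06.

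**Figure D5:**
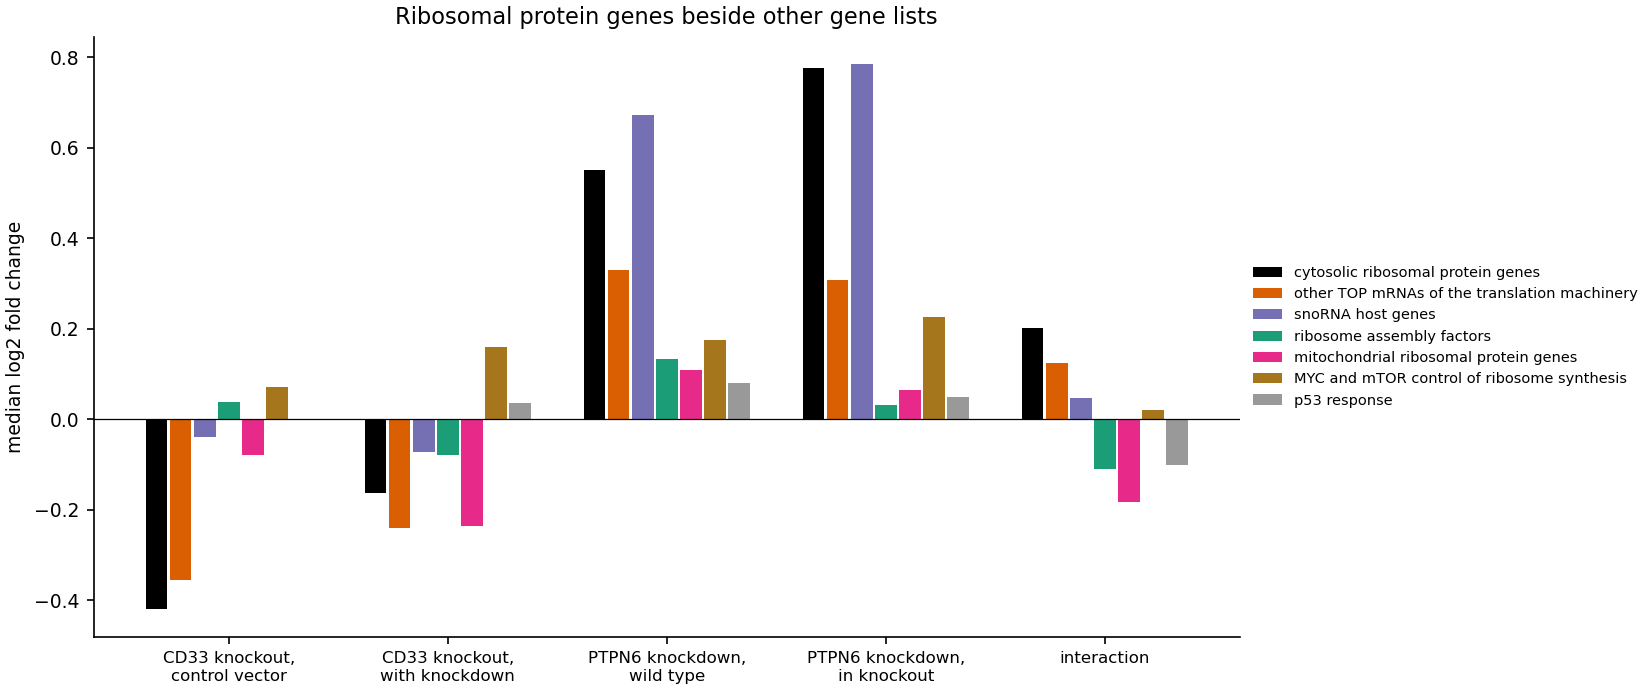
Median log2 fold change (vertical axis) of the cytosolic ribosomal protein genes and 6 other gene lists in 5 contrasts. The ribosomal protein genes (black) and the small nucleolar RNA host genes (purple) have the highest medians with PTPN6 knockdown, at 0.55 and 0.67 in wild-type cells and 0.78 each in knockout cells.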

How the data were processed

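Libraries were made from total RNA with a kit that sequences 3′ ends of polyadenylated transcripts, per the labels' protocols. What the authors deposited is 1 table of whole-number read counts by gene, not normalized. DESeq2 1.26.0, R 3.6.1, featureCounts, STAR 2.7.3a, Subread 2.0.0, bcl2fastq and the build hg38 appear among the submitters' processing notes. The gene annotation, the strand setting and the handling of reads with several matches are not given in the sources used here, so a member, its pseudogenes and antisense transcripts may share reads. Of 24 labelled samples 23 have a column that was used.

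The low-count filter of edgeR 4.0.16 (filterByExpr, run under R 4.3.3) left 13098 genes, which were scaled by TMM. Quasi-likelihood tests came from 1 fit over all 23 libraries, with Benjamini-Hochberg adjustment over all genes and a threshold of 0.05. A second fit used the summed member counts as the library size. Standard errors are the absolute fold change over the square root of the F statistic. DESeq2 1.42.0, other scalings, no filter, a replicate block, only the groups compared and leaving out each library were alternatives. Adding pseudogene counts and leaving out WT_shCTRL replicates 4 and 6 were chosen after seeing the data. Counts of RPS26P52 were not among those added, so this check does not cover RPS26. Gene names and biotypes come from GENCODE on GRCh38 and start windows from RefSeq.

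The members, lists and tests were chosen with earlier results of these data known. Named were the 3 highest and 3 lowest fold changes per contrast at 5 CPM or more, the 4 most abundant members per subunit, members called against the majority, members with a fixed role or paralog, and the 3 smallest interaction p-values. Of the other lists, up to 2 called genes per contrast were named. A result that the rule for names also covers is not reported here.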

Additional observations from a re-analysis of the deposited data

Results flagged for a closer look

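Over 14 members and 4 summed measures in each of the 4 groups, 3 of 72 sets of libraries had 1 library far from the rest, where chance gives about 1 in 20. RPLP0 was high in WT_shPTPN6 replicate 5, at 752 CPM, and so was RPS10 in the same library, at 93.5 CPM. RPL6 was high in CD33KO_shPTPN6 replicate 3, at 54.4 CPM.

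The knockdown effect differed between knockout and wild-type cells by the interaction test in 8 of these 14 members. Over all tested genes the test called 14.5% higher and 13.9% lower. Several of the 14, among them RPL28, RPL36A, RPS10, RPS27L and RPS6, were named for their interaction values, so the count was partly fixed by that choice. On the log2 scale, knockout minus wild type, the difference was 0.20 for RPL27A, 0.20 for RPS14, 0.37 for RPS6, 0.46 for RPL28, 0.30 for RPL37, −0.38 for RPS27L, 0.54 for RPL36A and 0.45 for RPS10. Without WT_shCTRL replicates 4 and 6, RPS14 (adjusted p = 0.124) and RPL36A (adjusted p = 0.109) lost the call. RPS14 and RPL27A also lost it without CD33KO_shPTPN6 replicate 4, RPL27A without CD33KO_shCTRL replicate 6, and RPL36A without any 1 of 15 single libraries.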

How the results depend on the processing

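Counts of members that moved in the main direction of a contrast stayed within 1.5 times under all alternatives, except the interaction, which called 26 in place of 40 without WT_shCTRL replicates 4 and 6. The small counts against it changed more. With the knockout and control vector, 1 member was higher under total counts, under no filter and without WT_shCTRL replicate 5, and 1 to 2 over all single libraries left out. With the knockdown in wild-type cells, 2 were lower under total counts and 0 under TMM without ribosomal protein and mitochondrial genes, no filter, DESeq2, added pseudogene counts or without WT_shCTRL replicates 4 and 6, and 0 to 2 when a library was left out. In knockout cells 0 were lower under no filter and DESeq2, and 0 to 1 when a library was left out. For the knockout with the hairpin, 3 were higher under total counts and 2 under no filter, and for both changes 7 were lower under total counts. As shares of nuclear protein-coding counts the members took 8.61%, 5.23%, 10.7% and 7.29% in CD33KO_shPTPN6, CD33KO_shCTRL, WT_shPTPN6 and WT_shCTRL. RPL36A with the knockdown in wild-type cells turned to 0.0676 with added pseudogene counts. Relative to the ribosomal protein total, the small subunit median of the knockout with the hairpin turned to −0.026 without CD33KO_shPTPN6 replicate 5, with a range up to 0.0942 over single libraries left out. The cause was not tested. Of the named members' values, 6880 kept their direction and side of the threshold, 131 lost and 55 gained a call. Same-numbered libraries of different groups had correlations of −0.0493 to 0.0324, and differently numbered ones −0.0672 to 0.0676. No pairing by number was seen, but counting noise over all genes could hide a weak one. With a replicate block 68 members were lower with the knockout and 73 higher with the knockdown in wild-type cells. Members with few counts are measured poorly: RPS26, with 271 counts in all libraries, had standard errors of up to 0.45. Its few counts stand beside 42978 in pseudogenes named after it, nearly all of them RPS26P52 in the knockout groups. Whether the few counts of RPS26 come from depth alone was not tested.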
